A study of Mus musculus with 4 samples.

Results

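The genes described here encode proteins that fill the granules and the cytoplasm of mature neutrophils: S100a8, S100a9, Mmp8, Mmp9, Camp, Ltf, Ngp, Lcn2, Chil3 and Retnlg. They were chosen by name, 10 genes in all, with earlier results of these arrays known. A probe set counted for a gene where the platform annotation paired it with that gene alone, which it did for 18193 genes of the array. This gave 10 probe sets for 9 of the 10 genes, 2 of them for Mmp9, and none for Retnlg, which therefore has no value here. Where a gene had more than 1 probe set, the one with the highest mean log2 value stood for it.

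The RNA came from a mouse model of acute megakaryoblastic leukemia (M7). Retroviral insertional mutagenesis of fetal progenitors with a mutant Gata1, the truncated form Gata1s, gave the leukemia, and the virus also carried the GFP reporter. Blasts were isolated directly from mice without treatment or culture and sorted as GFP-positive. Peripheral blood and spleen of 2 mice were used, so that each tissue has 2 arrays and each mouse 1 array of either tissue. The mouse numbers used here are the replicate numbers of the sample titles, which name no mouse. All 4 samples carry the same leukemia designation, T6(6), no array holds normal cells, and no source used here gives the age of the mice. Nor do the labels say whether the 2 mice had separate leukemias or carried the same one, so p-values measure only the spread between these samples. The 4 array medians lay between 103.7 and 110.6 in intensity, the brightness of a probe set on a linear scale; of the defining genes of the labelled lineage, Pf4 lay between 7507 and 8680 and Itga2b between 4237 and 4990, while Itgb3 and Treml1 were below the median of all probe sets in both blood samples.

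As background, granulocyte precursors make their granule proteins in waves. Proteases such as elastase and myeloperoxidase come first, the contents of specific granules, such as lactoferrin and cathelicidin, come at the myelocyte stage, and gelatinase comes last, while S100a8 and S100a9 accumulate in the cytoplasm as calprotectin. The late genes are among the most abundant transcripts of maturing neutrophils and are used to mark those cells in blood, bone marrow and spleen. C/EBP factors and PU.1 are the transcription factors best known for driving the programme.

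The start regions of the genes are shown first, as a description of sequence. Any link between them and the values on the arrays was not tested, and Retnlg has a window but no value. RefSeq windows of 300 bases, from 250 before to 50 after the annotated start (assembly GRCm38.p6), were given for 9 of the 10 genes, Mmp9 being the exception. Each window is written 5′ to 3′ along the gene. Capitals mark matches on either strand to 3 motifs: TATAAA, TTNNGNAA (a shape that C/EBP factors bind) and GAGGAAGT (a shape that PU.1 binds). The windows of the S100 pair, of the collagenase gene Mmp8, and of the specific granule genes Ltf and Ngp are printed, as examples of cytoplasmic, protease and specific granule genes.
S100a8, chr3:90668821-90669120, plus strand: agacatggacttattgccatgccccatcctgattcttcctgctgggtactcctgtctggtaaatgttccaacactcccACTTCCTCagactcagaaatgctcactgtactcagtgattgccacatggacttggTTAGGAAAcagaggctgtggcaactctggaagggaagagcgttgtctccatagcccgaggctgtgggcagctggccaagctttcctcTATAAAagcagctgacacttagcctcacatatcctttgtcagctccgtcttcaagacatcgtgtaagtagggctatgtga
S100a9, chr3:90695672-90695971, minus strand: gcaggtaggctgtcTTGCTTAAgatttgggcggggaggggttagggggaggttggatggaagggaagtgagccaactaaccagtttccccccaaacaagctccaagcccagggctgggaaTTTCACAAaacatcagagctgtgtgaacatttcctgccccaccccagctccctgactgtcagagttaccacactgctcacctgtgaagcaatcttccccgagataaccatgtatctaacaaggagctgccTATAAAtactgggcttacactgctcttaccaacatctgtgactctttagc
Mmp8, chr9:7558179-7558478, plus strand: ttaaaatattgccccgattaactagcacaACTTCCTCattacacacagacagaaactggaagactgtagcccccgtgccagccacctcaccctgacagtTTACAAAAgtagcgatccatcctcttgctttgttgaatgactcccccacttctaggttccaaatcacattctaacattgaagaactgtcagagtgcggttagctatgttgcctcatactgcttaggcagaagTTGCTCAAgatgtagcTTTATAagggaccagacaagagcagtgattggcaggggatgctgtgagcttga
Ltf, chr9:111019042-111019341, plus strand: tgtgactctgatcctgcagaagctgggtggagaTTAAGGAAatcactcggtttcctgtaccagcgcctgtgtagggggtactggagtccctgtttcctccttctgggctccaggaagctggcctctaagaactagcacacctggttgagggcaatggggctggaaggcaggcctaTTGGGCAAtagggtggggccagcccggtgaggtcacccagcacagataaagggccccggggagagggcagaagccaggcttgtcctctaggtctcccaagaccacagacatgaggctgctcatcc
Ngp, chr9:110419558-110419857, plus strand: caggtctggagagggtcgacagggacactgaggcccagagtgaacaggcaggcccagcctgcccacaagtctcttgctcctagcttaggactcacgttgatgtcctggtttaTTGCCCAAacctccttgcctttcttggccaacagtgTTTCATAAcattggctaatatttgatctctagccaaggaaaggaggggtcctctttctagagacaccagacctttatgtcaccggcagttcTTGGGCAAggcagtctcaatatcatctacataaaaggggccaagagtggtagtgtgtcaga

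TTNNGNAA was found in 8 of the 9 windows, all but that of Camp, and in 40.7% of the 32817 windows of the table. TATAAA was found in 4 of the 9, in S100a8, S100a9, Chil3 and Mmp8, and in 13.6% of all windows. GAGGAAGT was found in 2 of the 9, in S100a8 and Mmp8, and in 3.20% of all windows. Matches of different motifs did not overlap in any of the 9 windows. Ngp and Ltf both hold the letters TTGGGCAA, beginning at position -11 in Ngp and at -75 in Ltf, counted from the start site. The Chil3 window has 3 matches to TTNNGNAA, beginning at -53, -37 and -27. S100a8 and S100a9 are neighbours on chromosome 3 with 0 protein-coding genes between them, and Camp, Ngp and Ltf all lie on chromosome 9, with 8 genes between the first pair and 20 between the second. A match is a description of letters and not a binding site.

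The comparison of the 2 tissues asked how blasts of the spleen differed from blasts of the blood. All 9 measured genes had lower values in spleen than in blood within either mouse, against 26.7% of all 18193 genes, by little in mouse 1 and by a large amount in mouse 2. The median difference, spleen minus blood on the scale log2(intensity + 16), was -0.37 in mouse 1 and -4.06 in mouse 2. The brightest of the 4 arrays was the blood of mouse 2 and the dimmest was the spleen of the same mouse for 9 of 9, an order that 12.1% of all genes had. No gene passed the test over all genes, so these are differences between 4 arrays. As RNA was measured from many cells together, fewer cells of a kind and less RNA per cell cannot be told apart.

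S100a9 and S100a8 are the 2 chains of calprotectin, which binds calcium and zinc and makes up much of the neutrophil's cytoplasmic protein. For S100a9, mouse 1 gave an intensity of 2333 in blood against 1146 in spleen, and mouse 2 gave 5862 against 144. Both spleen values lay below both blood values, and the brightest array was 40.6 times the dimmest, both of them from mouse 2. For S100a8, mouse 1 gave 2346 against 1185, and mouse 2 gave 5601 against 178. It followed S100a9 on all 4 arrays. Its probe set is of the kind that Affymetrix marks as able to detect more than 1 transcript. The within-mouse differences were -1.02 and -5.20 for S100a9, and -0.98 and -4.86 for S100a8. Over both mice S100a9 differed by -3.11 ± 0.91 (SE, 2 arrays per tissue; limma, Benjamini-Hochberg adjusted p = 0.312), and S100a8 by -2.92 ± 0.84 (limma adjusted p = 0.308). In spleen of mouse 2 both were still brighter than 106, the median of all probe sets.

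Matrix metalloproteases of neutrophil granules differed in size. Mmp8, the neutrophil collagenase, stood at an intensity of 156 in blood against 93.5 in spleen for mouse 1, and at 590 against 20.3 for mouse 2. The spleen of mouse 2 was far below the median of all probe sets, so the size of that difference depends on the offset of 16. The differences were -0.65 and -4.06, and -2.36 ± 0.70 (SE) over both mice (limma adjusted p = 0.316). Mmp9, the gelatinase of the last granules to form, stood at 118 against 115 for mouse 1, and at 241 against 80.9 for mouse 2. It was the member with the smallest difference in mouse 2, -1.41, while its -0.03 in mouse 1 was close to 0. Over both mice Mmp9 differed by -0.72 ± 0.32 (SE; limma adjusted p = 0.431). Its second, dimmer probe set gave 76.0 against 106 for mouse 1 and 180 against 40.1 for mouse 2, so that the probe sets had the same direction in mouse 2 and opposite ones in mouse 1.

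The proteins of specific granules were represented by Ltf, Camp, Ngp and Lcn2. Ltf, which encodes the iron-binding lactoferrin, gave an intensity of 157 in blood against 118 in spleen for mouse 1, and of 590 against 33.4 for mouse 2. Camp, the cathelicidin precursor and an antimicrobial peptide, gave 60.0 against 42.7 for mouse 1, and 412 against -6.46 for mouse 2. Camp was therefore above the median of all probe sets on 1 array only, the blood of mouse 2, and its mean on the log2 scale did not reach the brightness needed for the test. Its arithmetic mean intensity did, and a filter on that mean gave Camp a difference of -2.56 (limma adjusted p = 0.367). Ngp, a granule protein related to the cathelicidins, was brighter, at 800.0 against 644 for mouse 1, and 2245 against 227 for mouse 2. Lcn2, which withholds iron from bacteria by binding siderophores, gave 542 against 532 for mouse 1, and 1272 against 232 for mouse 2. In all 4 genes the arrays had the same order, from blood of mouse 2 at the top to spleen of mouse 2 at the bottom, with mouse 1 in between.

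Within mouse 1 the difference of these 4 genes was small, at -0.37 for Ltf, -0.37 for Camp, -0.31 for Ngp and -0.03 for Lcn2. Within mouse 2 it was -3.61 for Ltf, -4.74 for Camp, -3.22 for Ngp and -2.38 for Lcn2. Over both mice Ltf differed by -1.99 ± 0.67 (SE; limma adjusted p = 0.349). Ngp differed by -1.76 ± 0.60 (SE; limma adjusted p = 0.349). Lcn2 differed by -1.20 ± 0.49 (SE; limma adjusted p = 0.399), the smallest of the 4. Without either array of mouse 2 the Lcn2 difference was -0.60 (blood left out) or -0.63 (spleen left out).

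Chil3 encodes a chitinase-like protein without enzyme activity that neutrophils and macrophages both make. Its intensity was 328 in blood against 312 in spleen for mouse 1, and 1288 against 47.8 for mouse 2. The mouse 1 arrays were alike, with a difference of -0.07, whereas the blood of mouse 2 was 27.0 times its spleen, a difference of -4.35. Over both mice Chil3 differed by -2.21 ± 0.88 (SE; limma adjusted p = 0.394). A further probe set that the annotation pairs with Chil4 and Chil3 together was left out by the rule and gave 235 against 273 for mouse 1 and 770 against 59.2 for mouse 2. Retnlg, a resistin-like gene of neutrophils, has no one-gene probe set to report.

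**Figure D1:**
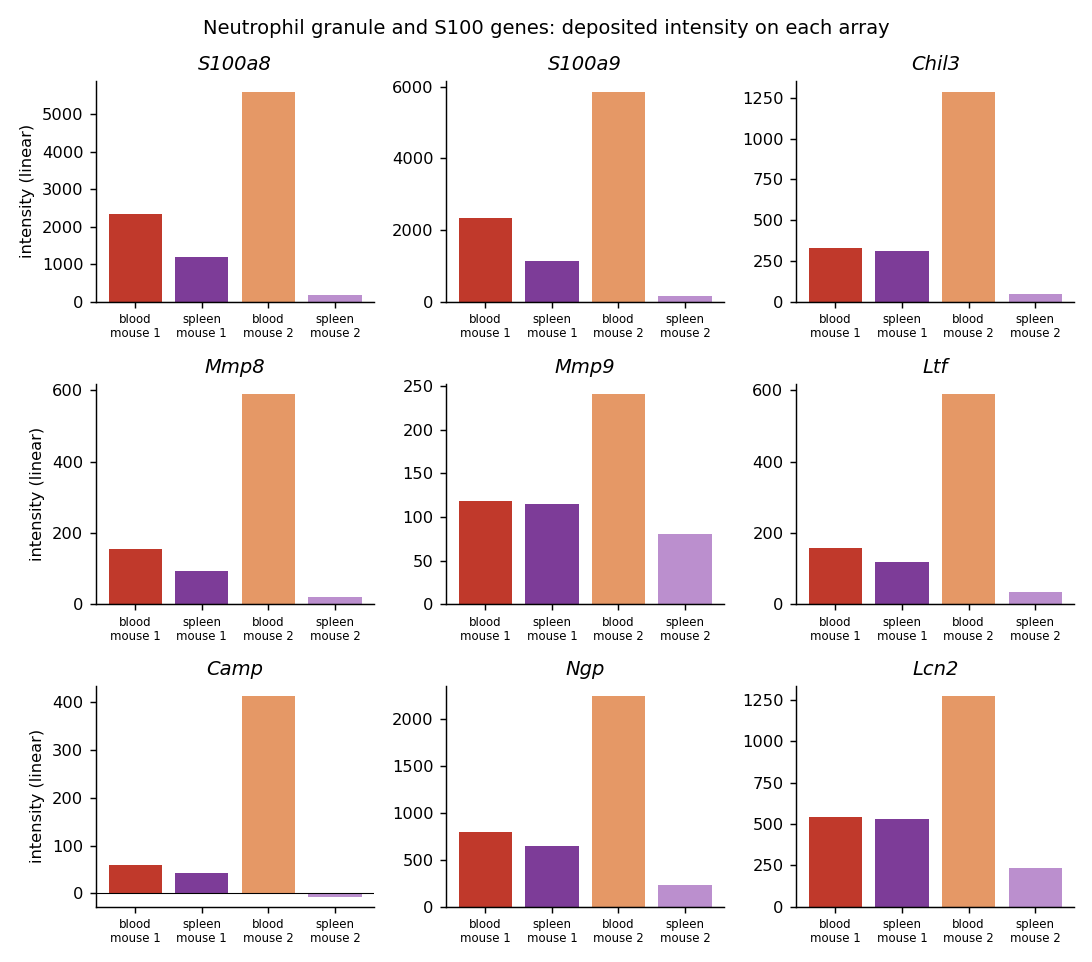
Deposited linear intensity of each of the 9 genes (1 panel per gene, each with its own axis) on the 4 arrays (red and orange for blood, purple and light purple for spleen), with 1 bar per array and no error bar because each bar is 1 array. In every panel the blood of mouse 2 is the tallest bar and its spleen the shortest, with mouse 1 between them, from 5862 against 144 for S100a9 to 241 against 80.9 for Mmp9.

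Both spleen arrays lay below both blood arrays for 9 of 9, against 18.6% of all genes. Given the order of the mouse 2 arrays, this count only repeats the sign in mouse 1. That sign rested on small differences for Chil3 (-0.07), Mmp9 (-0.03) and Lcn2 (-0.03). A difference of at least 2-fold to the lower side was seen in mouse 2 for 9 of 9, against 2.2% of all genes and 1.21% of the 11614 brighter genes that were tested. In mouse 1 it was seen for 1 of 9, S100a9, against 0.715% of all genes, and S100a8 missed it by little. The members were chosen with results of these arrays known, so no p is given for these counts.

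limma called 0 of the 11614 tested genes between the tissues, 0% of them, at an adjusted p of 0.05, and 1443 had an unadjusted p under 0.05. None of the 8 members that were bright enough was called, and Camp was not tested. The fit takes the 2 mice as replicates of a tissue, and for these genes the mice lay far apart. The calls did not change when mouse number was used as a block. Leaving out the spleen of mouse 1 gave 20 called genes, with S100a8 and S100a9 among them at an adjusted p of 0.046, against a range from 0.046 to 0.870 over all alternatives for either gene, and differences of -4.23 and -4.53. The spleen is then 1 array, so that the spread comes from the 2 blood arrays alone and the lone spleen array is assumed to vary like them. That call depended on how the filter on dim genes was read: with arithmetic mean intensities the same arrays gave 11 called genes, and both genes had a limma adjusted p of 0.057.

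**Figure D2:**
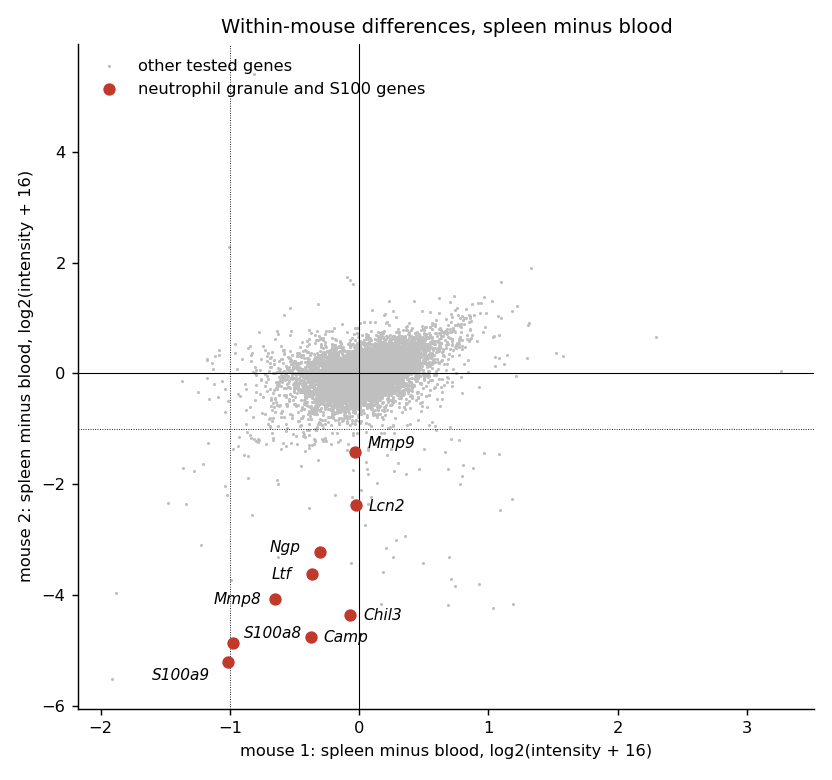
Difference of spleen minus blood on the log2(intensity + 16) scale within mouse 1 (horizontal axis) and mouse 2 (vertical axis). Grey points are the other tested genes, red points the 9 genes with a probe set (Camp among them, which was not tested), and dotted lines mark 2-fold lower. The red points run from Mmp9 at -0.03 and -1.41 to S100a9 at -1.02 and -5.20, all below 0 on both axes.

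The 9 genes differed among themselves in both mice. With the offset of 16 the differences in mouse 1 ran from -1.02 for S100a9 to -0.03 for Lcn2, and in mouse 2 from -5.20 for S100a9 to -1.41 for Mmp9. Genes with the larger difference in mouse 1 tended to have the larger one in mouse 2, Chil3 being out of order at -0.07 and -4.35, with Spearman's rho of 0.85 and Pearson's r of 0.74 across the 9 genes. These are descriptions over 9 genes measured on the same 4 arrays, and dim genes such as Camp and Mmp8 are compressed by the offset. In mouse 1 the other 7 genes had a median of -0.31, nearer to 0 than either S100 gene. In mouse 2 their median was -3.61. In mouse 2 only the early response gene Fos had a lower difference than S100a9 among all tested genes. Of the 10 tested genes with the lowest difference in mouse 2, 4 were members: S100a9, S100a8, Chil3 and Mmp8.

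The comparison can also be read between the animals within a tissue. In blood all 9 genes were higher in mouse 2 than in mouse 1, with a median difference of 1.47. It ran from 0.94 for Mmp9 to 2.49 for Camp. In spleen all 9 were lower in mouse 2 than in mouse 1, with a median of -1.59, and it ran from -0.43 for Mmp9 to -2.86 for S100a9. S100a8 was at -2.63 and Chil3 at -2.36. Camp, whose value below 0 in spleen of mouse 2 was set to 0, has no place in such an order, since its difference follows the offset. With 1 animal per side there is no test of these differences. The summed intensity of the 9 genes, with values below 0 set to 0, was 6841 in blood against 4188 in spleen for mouse 1, and 18102 against 963 for mouse 2. The S100 pair made up 11463 of the 18102 in blood of mouse 2, and 322 of the 963 in its spleen.

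Related genes, on 3 lists of neutrophil genes and 1 of other S100 genes, had medians closer to 0 than the 9 genes. The first list held receptors and late products of neutrophils, and 28 of 35 had a probe set. Of these 19 were lower in spleen in both mice, 15 were at least 2-fold lower in mouse 2 and 1 in mouse 1, 4 were at or below an intensity of 0 in spleen of mouse 2, and 0 were called. The medians were -0.21 and -1.21, and single genes reached the size of the members: Fpr2, a formyl peptide receptor, differed by -4.90 in mouse 2 and -0.20 in mouse 1, Hp, haptoglobin, by -3.96 and -0.70, and Lrg1 by -3.58 and -0.32. These 3 are dim and were not tested, and they were picked after their values were seen. Of the 28 genes, 12 were bright enough for the test, and the offset pulls the differences of dim genes toward 0. Among the tested genes of the list with the largest differences, Ifitm6 was at -1.41 ± 0.44 (SE; limma adjusted p = 0.331), the annexin Anxa1 at -0.77 ± 0.27 and the cytokine Il1b at -0.77 ± 0.39. Cxcr2, the chemokine receptor that brings neutrophils out of the marrow, differed by -0.21 and -0.29 in the mice, and the integrin chain Itgb2 by 0.13 and -0.53. Ly6g, the usual surface marker of mouse neutrophils, had no one-gene probe set here.

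The NADPH oxidase makes the oxidative burst of neutrophils and other phagocytes, and 5 of its 6 listed subunits had a probe set. Cybb, its membrane catalytic chain, gave 200.1 in blood against 243 in spleen for mouse 1, and 771 against 63.7 for mouse 2. The order in mouse 1 was the reverse of that of the members, and in mouse 2 the same. Its differences were 0.26 and -3.30. Ncf4, a cytosolic subunit, differed by -0.32 and -0.97, and Cyba, the partner chain of Cybb, by -0.09 and -0.29. Ncf1 and Rac2, the other 2, lay between -0.03 and -0.10 in both mice. None of the 5 was called.

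Early granule proteins and the factors of the granulocyte lineage formed the third list, with 13 of 14 genes measured. They went both ways, with 3 higher and 4 lower in both mice, medians of 0.14 and -0.26, and 0 called. Prtn3, proteinase 3, stood at 951 in blood against 1609 in spleen for mouse 1, and at 931 against 1340 for mouse 2, higher in spleen in both. Ctsg, cathepsin G, stood at 529 against 758, and at 616 against 784. These differences were 0.75 and 0.52 for Prtn3, and 0.51 and 0.34 for Ctsg. The other granule enzymes of the list did not hold one sign, with Elane, neutrophil elastase, at 0.46 and -0.17, Mpo, the myeloperoxidase gene, at 0.14 and -0.26, and Ctsc, which activates granule proteases, at 0.06 and -0.13. Spi1, which encodes PU.1, differed by -0.35 and -0.74, Cebpb by -0.02 and -0.48, and Irf8, a factor of monocytes and dendritic cells, by 1.09 and -2.46. Prtn3 differed by 0.63 ± 0.13 (SE; limma adjusted p = 0.201) and Spi1 by -0.54 ± 0.14 (SE; limma adjusted p = 0.255).

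S100a8 and S100a9 belong to a larger family of calcium-binding proteins, of which 11 of the 14 other listed genes had a probe set. The median of these 11 was -0.12 in mouse 1 and -0.27 in mouse 2, and 1 gene was at least 2-fold lower in mouse 2. That gene was S100a10, the annexin partner, at 2267 in blood against 1423 in spleen for mouse 1 and at 2699 against 1191 for mouse 2. It differed by -0.92 ± 0.15 (SE; limma adjusted p = 0.144). S100a4 and S100a6 were bright and differed by -0.25 and -0.12 in mouse 1, and by -0.54 and -0.37 in mouse 2. None of the 11 had the range over the arrays that S100a8 and S100a9 had.

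Markers of other blood cells were listed because a sort can let some of them through, although the sort here was for GFP, and they moved in part with the 9 genes. Of 16 macrophage and monocyte genes, 7 had the same brightest and dimmest array as the 9 genes, and 4 were at least 2-fold lower in that spleen. Their summed intensity was 3865 in blood against 4871 in spleen for mouse 1, and 7657 against 3381 for mouse 2. In mouse 1 the list ran the other way from the members, with 6 genes at least 2-fold higher in spleen and a median of 0.31. Complement genes of tissue macrophages were dim in blood, C1qb at 30.9 and C1qc at 29.7 in mouse 1, and higher in its spleen, at 273 and 231. In mouse 2 C1qb stood at 62.2 in blood against 60.8 in spleen, and C1qc at 37.3 against 71.7. C1qa was below 0 on 3 of the 4 arrays. C1qa, C1qb and C1qc were too dim for the test. In mouse 1, 4 of the 16 genes were lower in spleen, among them Vcam1, at 323 in blood against 165. In mouse 2 Vcam1 stood at 259 in blood against 313 in spleen. Csf1r, the receptor that macrophages need to survive, was at 269.9 against 387 for mouse 1 and at 1326 against 110 for mouse 2. Mpeg1, a pore-forming protein of phagocytes, differed by 1.19 and -4.15 in the mice, and Cd68, a lysosomal protein of macrophages, by -0.10 and -0.86.

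Of 15 T and NK cell genes, 6 had that brightest and dimmest array, and 5 were at least 2-fold lower in spleen of mouse 2. Their medians were 0.03 and -0.45, and their summed intensity was 7916 against 9238 for mouse 1, and 11234 against 5859 for mouse 2. Much of the change in that sum came from Gzma, at 1338 against 2757 for mouse 1, and at 3486 against 171 for mouse 2. Gzma, a granzyme of cytotoxic cells, differed by 1.03 and -4.23 in the mice, the NK receptor genes Klrd1 and Ncr1 by 0.36 and -1.81, and by 0.46 and -1.72, while Cd3e, a chain of the T cell receptor complex, differed by -0.26 and 0.02. Of 9 B and plasma cell genes and of 7 erythroid genes, 0 and 1 had that order of arrays, and their medians in mouse 2 were -0.08 and -0.12. The 9 B and plasma cell genes summed to between 577 and 715 on the arrays, and the 7 erythroid genes to between 6642 and 7167. Of the B and plasma cell genes only Pax5 was bright enough for the test, and so dim a list gives no clear contrast with the members. The B cell factor Pax5 differed by 0.26 and 0.23, and the dimmer Fcrla by -0.84 in both mice. The erythroid genes Slc4a1, Klf1 and Hemgn differed by 0.25 and 0.13, by -0.06 and -0.24, and by 0.62 and 0.81. Of 7 genes of eosinophils, basophils and mast cells 1 had that order of arrays, with medians of 0.01 and -0.40. The 7 genes summed to 2695 against 3767 for mouse 1 and to 2186 against 1568 for mouse 2. Among them Prg2, the eosinophil major basic protein, differed by 2.30 and 0.65, Siglecf by -0.06 and -0.63 and Fcer1a by 0.02 and -0.40. The sum rose in mouse 1 mainly through Prg2, at 270 against 1394, and fell in mouse 2 mainly through Siglecf, at 1791 against 1151. The list of megakaryocytes and platelets held 11 measured genes, 10 of them with a positive difference in either mouse, Itga2b being the exception at -0.0033 in mouse 1, with medians of 0.58 and 0.84 and sums of 17542 against 20633 for mouse 1, and of 17274 against 22028 for mouse 2. Among its tested genes Treml1, Gp1bb and Ppbp, all of platelets, differed most, by 1.33 and 1.90, 0.87 and 1.25, and 0.62 and 1.36. The integrin chain Itgb3, too dim for the test, gave 15.9 in blood against 39.7 in spleen for mouse 1, and -4.17 against 123 for mouse 2. The part of RNA from other blood cells in the values of the 9 genes was not tested.

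**Figure D3:**
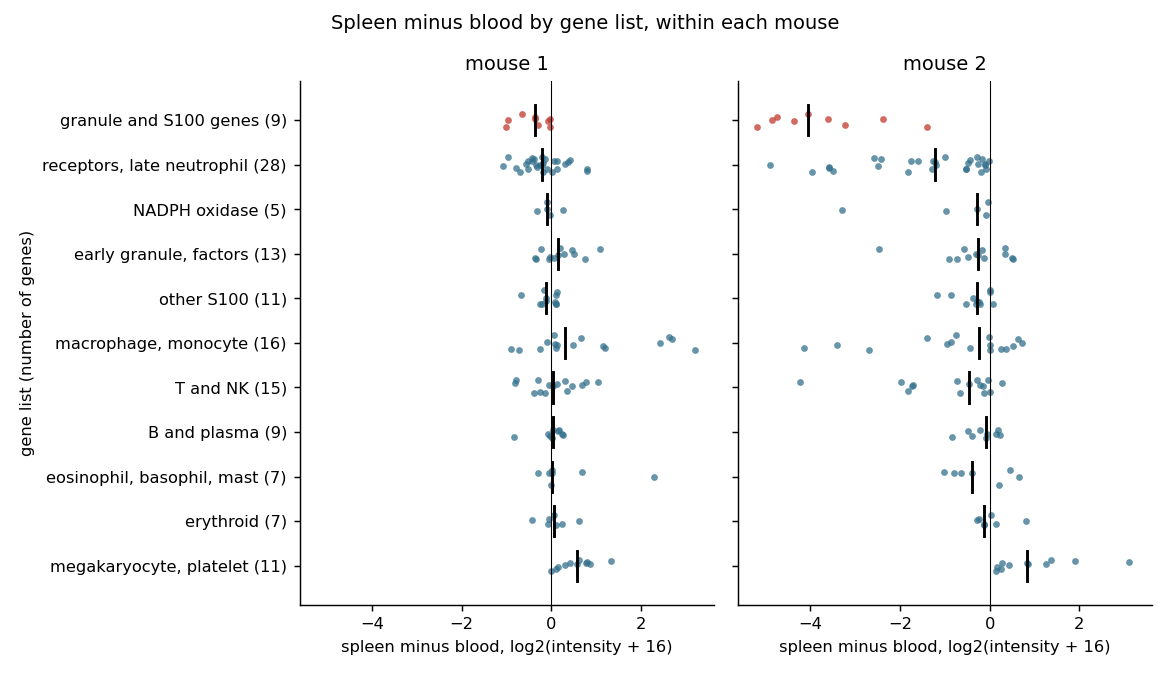
Difference of spleen minus blood on the log2(intensity + 16) scale for the genes of 11 lists (1 point per gene, black bar at the median), in mouse 1 on the left and mouse 2 on the right, with the number of genes beside each name. The 9 granule and S100 genes have medians of -0.37 and -4.06, the macrophage and monocyte list 0.31 and -0.24, and the megakaryocyte and platelet list 0.58 and 0.84.

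The tested genes outside the members whose pattern was most like theirs were found by distance. The median profile of the 9 genes over the 4 arrays, each gene taken relative to its own mean, was 0.14 in blood against -0.14 in spleen for mouse 1, and 2.07 against -1.98 for mouse 2. The 5 nearest genes by root mean square difference over the 4 arrays were Lsp1 at 0.24, Ms4a6b at 0.26, Retnla at 0.31, Cybb at 0.33 and Klf2 at 0.33. Retnla, a resistin-like gene of the family that Retnlg also belongs to, gave an intensity of 245 in blood against 115 in spleen for mouse 1, and of 832 against 48.1 for mouse 2. Lsp1, an actin-binding protein of leukocytes, gave 219.6 against 209 for mouse 1, and 814 against 61.6 for mouse 2. Ms4a6b gave 332 against 379.5, and 1119 against 78.5. The transcription factor Klf2 gave 301 against 189, and 1036 against 89.7. Among the members, Mmp8 lay nearest to the median profile, at 0.13, and Mmp9 farthest from it, at 0.94. S100a8 at 0.53, Lcn2 at 0.60 and S100a9 at 0.63 also lay farther from it than the 5 genes outside the members.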

How the data were processed

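The 4 arrays were analysed from the deposited table of probe set intensities, which holds linear values, some of them below 0. Their probe summary, background correction and scaling by the authors are not given in the sources used here, and no step was undone. Negative values became 0, an offset of 16 was added, and log2 was taken, which understates the change of dim genes. Control probe sets, 64 in number, and those of several genes were left out. Symbols were updated by Entrez identifier through RefSeq (GRCm38.p6), which held 34741 of 34945 one-gene probe sets. Genes at or above an intensity of 106 on average, the median over probe sets, were tested: 11614 of 18193. The planned filter said only mean intensity. It was first run with arithmetic means, and after those values were seen the mean was taken on the log2 scale instead, as in the earlier analysis of these arrays, and control probe sets were left out. The arithmetic reading tested 11618 genes, 11582 of them the same, and is given as an alternative chosen after seeing the data.

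Spleen was compared with blood in R 4.3.3 with limma 3.58.1 (functions lmFit and eBayes; two-sided p), tissue being the only term, and p-values were adjusted by Benjamini-Hochberg over all tested genes at 0.05. The fit was also run on simulated data with known changes. The simulated noise held no difference between mice, so that run says nothing about genes for which the mice lay far apart. Errors of differences are standard errors (SE) of the fit. Summaries used Python 3.11.15. Both tissues of a mouse share its number, so mouse as a block was an alternative. The correlation of the difference between the mice in blood with that in spleen was 0.10 across tested genes. The pairing was taken from matching replicate numbers in the sample titles, and this correlation does not establish it. The members, lists and tests were chosen with earlier results of these arrays known. Named genes were the members, the 3 tested genes of each list with the largest difference and the 5 genes nearest in pattern. Others are examples of a count. Offset, filter, scaling, probe set, prior and left-out arrays were varied, as the closing section gives.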

Additional observations from a re-analysis of the deposited data

Results flagged for a closer look

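The difference between the mice pointed in opposite directions in the 2 tissues for all 9 genes. Mouse 2 minus mouse 1 had a median of 1.47 in peripheral blood and of -1.59 in spleen on the log2(intensity + 16) scale. Each side of either comparison is 1 array, so this difference between the tissues was not tested.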

How the results depend on the processing

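Changing the brightness cutoff, using mouse number as a block or letting the prior variance follow intensity cannot change a difference. All 9 genes kept a negative difference of spleen minus blood under each of 13 alternatives with the log2 filter. As both spleen arrays lay below both blood arrays for all 9, another offset or a left-out array could not reverse that sign. Only rescaling the arrays and, for Mmp9, the mean of all probe sets could have done so. Counting the alternatives in which the sign could not change, that is 117 values in all. Among these, only S100a8 and S100a9 passed the threshold, and only without spleen replicate 1. The median difference of the 9 genes was -2.21, and it lay between -2.40 (offset 1) and -1.64 (offset 64) in the 9 of them that kept all 4 arrays. Leaving out 1 array gave between -3.17 and -1.25, the latter without blood replicate 2, and -1.27 without spleen replicate 2. In 8 of these 9 alternatives all 9 genes had lower values in spleen within either mouse, and the mean of all probe sets gave 8 genes. For the offsets, the brightness cutoffs, the block and the prior this count was fixed in advance. Another offset keeps the order of the arrays, and the others use the log2 values of the main fit. With mouse number as a replicate block the adjusted p of S100a9 was 0.283, and the block changed no call. The number of genes called over all genes was 0, and it was 45 with a prior variance that follows intensity. Leaving out 1 array gave between 0 and 20 calls, with 1 array in a tissue assumed to vary like the other tissue's pair. An alternative chosen after seeing the data, the filter on arithmetic mean intensity, called 0 genes, and also 0 with the prior that follows intensity, where the log2 filter gave 45. With 1 array left out as well it called between 0 and 11 genes (11 without spleen replicate 1 and 2 without spleen replicate 2), and no member passed, the lowest limma adjusted p of a member being 0.057. The cause of these changes was not tested. Camp, Mmp8, Mmp9, Ltf and Chil3 were dimmer than the median of all probe sets in spleen of mouse 2, which limits the size of their differences: that of Camp was -4.59 with an offset of 1 and -1.56 with an offset of 64.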
